A study of Mus musculus with 12 samples.

Results

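The 9 genes described here supply a cell with serine, asparagine, single-carbon units and imported amino acids: Asns, Phgdh, Psat1, Psph, Shmt2, Mthfd2, Bcat1, Slc3a2 and Slc7a5. They were chosen by name, and each was measured by the probe sets whose platform annotation lists that symbol alone, which gave 19 probe sets of the 20380 with 1 gene symbol and 9 of the 12393 genes so measured. Phgdh and Shmt2 had 4 probe sets each, Asns, Psat1, Mthfd2 and Bcat1 had 2 each, and Psph, Slc3a2 and Slc7a5 had 1 each. Each gene's level was read from its brightest probe set by mean over the 12 arrays, and the others are given where they differ.

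Total RNA of mouse macrophages was measured on 12 Affymetrix arrays in 4 groups of 3. The groups were RAW264.7 cells labelled unstimulated, RAW264.7 cells with estradiol at 1 ug/mL overnight, macrophages from bronchoalveolar lavage of control mice, and macrophages from lavage of pregnant mice. RAW264.7 is a single macrophage-like line from a male mouse, and lavage fluid collects the loose cells of airways and alveoli. The design text has the lavage cells going straight to RNA extraction and the untreated RAW264.7 cultures receiving vehicle, although the sample labels repeat the estradiol and culture-medium text (RPMI, serum, antibiotics, HEPES, L-glutamine) for every sample. The vehicle, the stage of pregnancy and the strain and age of the mice are not given in the labels, nor is the sex of the control mice, any pooling of animals or any sorting of lavage cells. The labels do not say whether replicates were separate cultures or animals, so the p-values reflect no more than how these samples varied, part of which may be technical.

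Values are the authors' intensities, taken here as log2(intensity + 1). A level is such a log2 value, and a change is a difference of group means of these values, which slightly understates changes of dim genes. A change was called when its limma p-value, adjusted by Benjamini-Hochberg over all 12393 genes, was under 0.05, and a gene counted as dim if fewer than 3 of the arrays in a comparison put it over their own 40th percentile. Median intensities of the 12 arrays lay between 369 and 393, and for arrays their number limits the precision. The macrophage genes Cd68, Lyz2, Csf1r, Tyrobp and Ctsd lay above the 40th percentile on all 12 arrays. The RAW264.7 arrays lacked signal above that percentile for Mertk and for 8 of 11 alveolar macrophage markers (Siglecf, Marco, Pparg, Car4, Chil3, Krt79, Plet1 and Cidec), whereas the lavage arrays carried all 11 and lacked Itgam. Lavage arrays also carried epithelial markers, whose summed intensity was 28250 to 46010, against 486.2 to 589.3 on RAW264.7 arrays.

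Cells make serine from the glycolytic intermediate 3-phosphoglycerate by the successive action of Phgdh, Psat1 and Psph. In mitochondria Shmt2 moves a carbon unit from serine to tetrahydrofolate, and Mthfd2 oxidises it for use in purine and thymidylate synthesis. Asns makes asparagine from aspartate with glutamine as the nitrogen donor, Bcat1 is the cytosolic enzyme that exchanges amino groups between branched-chain amino acids and 2-oxoglutarate, and Slc3a2 (CD98 heavy chain) holds Slc7a5 (LAT1) at the cell surface, where the pair imports large neutral amino acids. Several of these genes are textbook targets of the transcription factor ATF4, which acts when amino acids run short, and macrophages raise serine synthesis when activated by bacterial products.

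Promoter windows, from 250 bases before to 50 bases after an annotated start in RefSeq (build GRCm38.p6), were found for 8 of the 9 members, in 10 windows, with none listed for Slc7a5. They were searched on both strands for TGATGNAA, the core of the element bound by C/EBP-ATF pairs, for CACGTG, the E-box, and for the estrogen response element, which is GGTCA, 3 bases of any kind, then TGACC. The windows shown are those of Asns, which held the only match among members, of Slc3a2, the only member whose rise with estradiol was called, and of Bcat1, whose level differed most between the cell sources. All lie on the minus strand and are printed 5′ to 3′, with the match in capitals: Asns at chr6:7693160-7693459, Slc3a2 at chr19:8713848-8714147, and the Bcat1 pair at chr6:145048763-145049062 and chr6:145076108-145076407.
Asns: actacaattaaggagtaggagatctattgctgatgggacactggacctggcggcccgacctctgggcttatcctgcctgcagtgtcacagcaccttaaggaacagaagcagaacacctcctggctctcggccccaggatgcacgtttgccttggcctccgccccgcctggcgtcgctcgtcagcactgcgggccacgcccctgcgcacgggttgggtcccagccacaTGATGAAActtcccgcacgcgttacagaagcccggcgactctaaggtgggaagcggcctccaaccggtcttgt
Slc3a2: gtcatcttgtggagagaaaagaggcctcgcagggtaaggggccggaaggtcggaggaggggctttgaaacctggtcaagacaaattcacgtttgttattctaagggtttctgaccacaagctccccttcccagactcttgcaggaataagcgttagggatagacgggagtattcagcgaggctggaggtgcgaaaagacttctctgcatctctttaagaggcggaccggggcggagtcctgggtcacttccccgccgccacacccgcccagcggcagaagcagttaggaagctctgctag
Bcat1 window 1: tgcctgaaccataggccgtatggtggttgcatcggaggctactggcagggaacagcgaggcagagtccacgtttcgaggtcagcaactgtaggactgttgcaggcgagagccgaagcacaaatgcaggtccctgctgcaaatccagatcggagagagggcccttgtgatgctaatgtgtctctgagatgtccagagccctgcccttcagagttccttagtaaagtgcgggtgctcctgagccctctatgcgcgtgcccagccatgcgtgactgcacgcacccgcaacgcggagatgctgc
Bcat1 window 2: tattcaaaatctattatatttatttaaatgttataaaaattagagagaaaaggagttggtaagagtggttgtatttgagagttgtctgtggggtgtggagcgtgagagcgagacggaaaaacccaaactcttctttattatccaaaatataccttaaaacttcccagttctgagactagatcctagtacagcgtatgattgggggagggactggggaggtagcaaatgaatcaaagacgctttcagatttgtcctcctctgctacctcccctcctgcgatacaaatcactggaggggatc
The Asns match, TGATGAAA, lay from position -23 to -16 relative to the start. TGATGNAA was in 3.97% of all 32851 windows in the table, CACGTG in 7.15% and the estrogen response element in 0.07%. CACGTG and the estrogen response element were in 0 of the 10 member windows, which says only that these letters are not in these stretches.

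The first comparison set control lavage macrophages against unstimulated RAW264.7 cells. Of the 9 genes, 7 were lower and 2 were higher in lavage cells, while 61.9% of all 12393 genes were called between these sources (27.9% higher and 34% lower). The values of the groups did not overlap for any of the 9, against 69.9% of all genes, and all 9 passed at an unadjusted p under 0.05, against 65.7%. The median change over the 9 was -1.33 on the log2 scale, beside -0.07 over all genes. Cell source, culture, the sex of the animals and the other cells in lavage fluid cannot be told apart in this comparison, and in such bulk samples fewer cells of a type and less RNA per cell cannot be told apart either.

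Asns, asparagine synthetase, had log2 levels of 12.61, 12.69 and 12.68 on the unstimulated arrays and of 11.10, 10.93 and 10.73 on the control lavage arrays. All 3 lavage values lay below all 3 RAW264.7 values. The lavage level was 3.34-fold lower, a log2 change of -1.74 ± 0.10 (SE, n = 3 per group, limma adjusted p = 9.55e-06), and the second Asns probe set gave -1.80.

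By the probe sets used, the 3 enzymes of serine synthesis did not move together. Phgdh, which catalyses the first and committed step, had levels of 12.60, 12.63 and 12.51 in unstimulated cells and of 12.70, 12.76 and 12.79 in control lavage cells. These groups lay close to each other without overlapping, and the change was 0.17 ± 0.05 (SE, n = 3 per group, limma adjusted p = 0.0326). That call ended with the mean of the Phgdh probe sets (limma adjusted p = 0.0859), and also without unstimulated array 1 (0.0709) or 3 (0.113) or control array 2 (0.0687) or 3 (0.0899). The other 3 Phgdh probe sets gave changes of 0.08 to 0.14, none of them called, and 2 further probe sets are annotated to Phgdh together with Gm8096 or Gm6756 and were left out. The probe set that gave 0.08 lay under the 40th percentile on every array of the 4 groups and was dim.

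Psat1, the aminotransferase of the second step, had levels of 13.44, 13.41 and 13.48 in unstimulated RAW264.7 cells and of 11.62, 11.76 and 11.53 in control lavage cells. The RAW264.7 values sat far above every lavage value, a 3.50-fold difference (log2 change -1.81 ± 0.07, SE, n = 3 per group, limma adjusted p = 1.952e-06). Psph, the phosphatase that releases serine, had levels of 11.13, 11.12 and 11.14 in unstimulated cells and of 10.24, 10.15 and 10.17 in control lavage cells. Each group was tight and the lavage level was 1.92-fold lower (log2 change -0.94 ± 0.05, SE, n = 3 per group, limma adjusted p = 6.003e-06).

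Both mitochondrial folate enzymes were lower in lavage cells. Shmt2 had levels of 11.73, 11.68 and 11.65 in unstimulated cells and of 10.16, 10.27 and 10.31 in control lavage cells, and its 4 probe sets gave changes of -1.53 to -1.31, all called. Mthfd2 had levels of 12.67, 12.66 and 12.58 in unstimulated cells and of 11.45, 11.31 and 11.15 in control lavage cells, with a change of -1.33 ± 0.09 (SE, n = 3 per group, limma adjusted p = 1.935e-05) and of -1.87 for its second probe set. For both genes the lowest RAW264.7 value lay above the highest lavage value.

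Bcat1 was the member that separated the sources most. Its levels were 12.47, 12.35 and 12.48 in unstimulated RAW264.7 cells and 12.54, 12.41 and 12.48 with estradiol, against 3.87, 5.01 and 3.97 in control and 4.04, 4.06 and 4.13 in pregnant lavage cells. In intensity units the 6 RAW264.7 arrays ran from 5202 to 5955 and the 6 lavage arrays from 13.7 to 31.3, where Bcat1 ranked between the 6.16th and the 20.7th percentile of all probe sets. Bcat1 was therefore dim in lavage cells, and the measured change of -8.15 ± 0.30 (SE, n = 3 per group, limma adjusted p = 1.523e-06) sets a bright value against one near the bottom of the array's range. Against the 40th percentile of the control arrays, the unstimulated level was 40.1-fold higher. The second Bcat1 probe set, at 9.57, 9.43 and 9.57 in unstimulated and 5.68, 6.05 and 5.50 in control lavage cells, gave a change of -3.78, and the mean of both gave -5.96.

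The heavy and the light chain of the CD98 transporter went opposite ways between the sources. Slc3a2, the heavy chain, had levels of 12.26, 12.25 and 12.23 in unstimulated cells and of 12.65, 12.44 and 12.49 in control lavage cells, where it was higher by 0.28 ± 0.06 (SE, n = 3 per group, limma adjusted p = 0.00882). Slc7a5, its light chain for large neutral amino acids, had levels of 11.66, 11.68 and 11.62 in unstimulated and of 10.76, 10.92 and 10.67 in control lavage cells, where it was lower by 0.87 ± 0.07, a 1.83-fold difference (SE, n = 3 per group, limma adjusted p = 6.884e-05). Neither pair of groups overlapped.

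**Figure D1:**
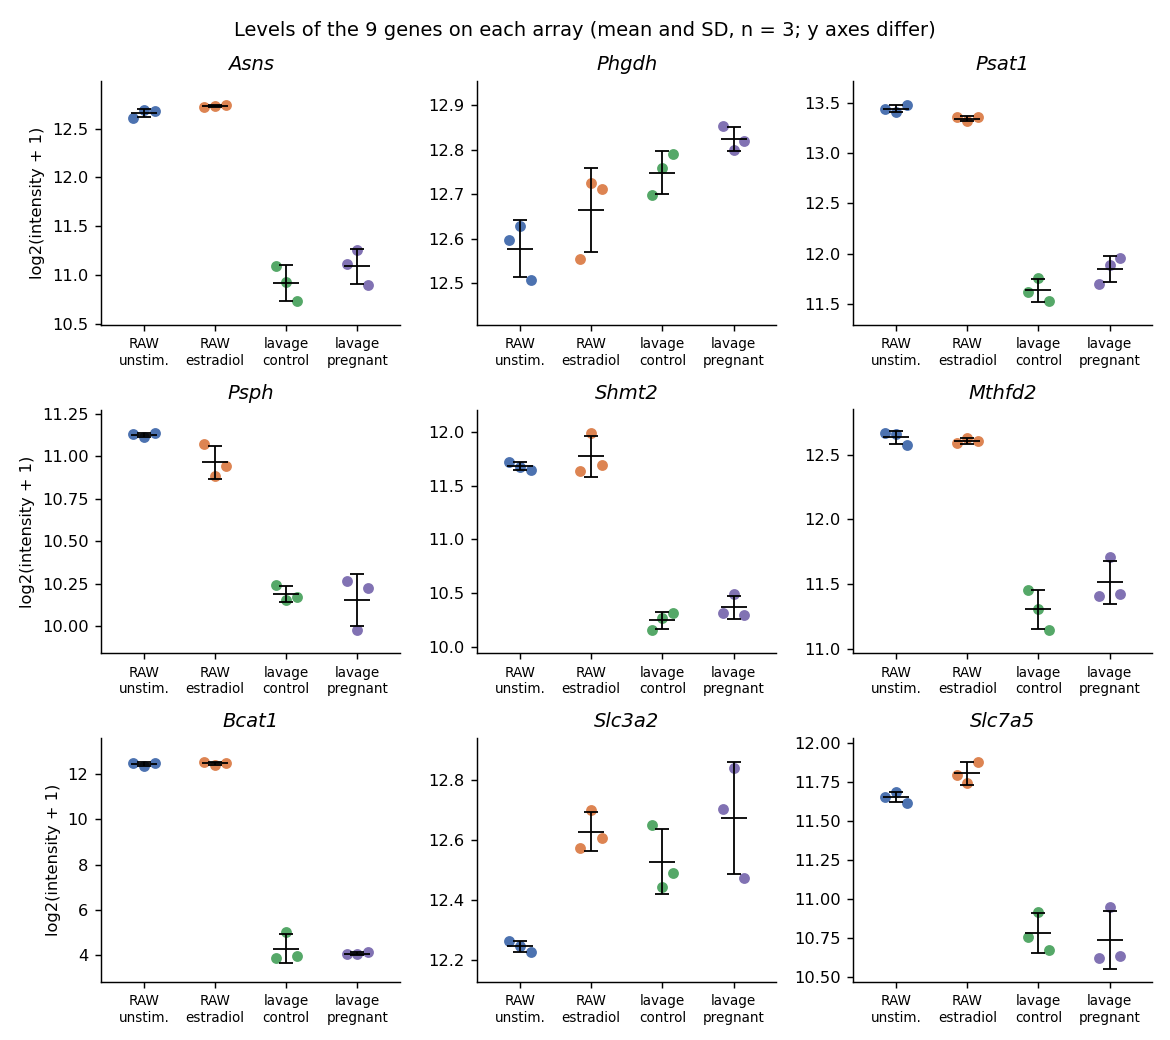
Log2(intensity + 1) of each of the 9 genes (1 panel per gene, y axes differ) in the 4 groups, with points for single arrays and a line with a bar for the mean and SD (n = 3). Asns, Psat1, Psph, Shmt2, Mthfd2, Bcat1 and Slc7a5 lie lower on every lavage array than on every RAW264.7 array, Phgdh and Slc3a2 do not, and Slc3a2 alone shows a called step between the unstimulated and estradiol arrays.

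Ordered by group, the levels of Asns, Psat1, Psph, Shmt2, Mthfd2, Bcat1 and Slc7a5 ran with both RAW264.7 groups above both lavage groups, and no lavage array reached a RAW264.7 array for any of these 7 genes. For Phgdh the order of means was unstimulated, estradiol, control lavage and pregnant lavage from low to high, at 12.58, 12.66, 12.75 and 12.82. For Slc3a2 the unstimulated mean of 12.25 was lowest, and the ranges of estradiol (12.57 to 12.70), control lavage (12.44 to 12.65) and pregnant lavage (12.47 to 12.84) overlapped one another.

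The second comparison asked what overnight estradiol did to these genes in RAW264.7 cells. Of the 9 genes 1 rose, 0 fell and 8 did not pass, where 11.4% of all genes were called, 6.75% higher and 4.66% lower. At an unadjusted p under 0.05, 3 of the 9 passed, against 26.9% of all genes. The groups did not overlap for 5 of the 9, against 34.8% of all genes, and the median change was 0.07 beside 0.02 over all genes.

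Slc3a2 was the gene whose rise was called. Its levels were 12.26, 12.25 and 12.23 without and 12.57, 12.70 and 12.61 with estradiol. The 3 treated arrays lay above the 3 unstimulated arrays by more than the range of either group, a change of 0.38 ± 0.05 (SE, 95% interval 0.26 to 0.51, n = 3 per group, limma adjusted p = 0.00540), or 1.30-fold. The call held in all 17 alternative settings, with limma adjusted p-values from 0.000273 to 0.0333. Estradiol array 2, the highest for Slc3a2, had a 3′ over 5′ actin difference of 0.743 on the log2 scale, where the remaining RAW264.7 arrays had 0.389 to 0.48. Without that array the Slc3a2 change was 0.35 (limma adjusted p = 0.00760).

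Among the other members, Slc7a5 was at 11.66, 11.68 and 11.62 without and at 11.79, 11.74 and 11.88 with estradiol. These groups did not overlap, and the change of 0.15 ± 0.05 (SE, n = 3 per group) did not pass (limma adjusted p = 0.132). Psph was at 11.07, 10.88 and 10.94 with estradiol, below its 3 unstimulated values, and its change of -0.16 did not pass (limma adjusted p = 0.143). Psat1, at 13.35, 13.32 and 13.36 with estradiol, also lay below its unstimulated values, with a change of -0.10 (limma adjusted p = 0.234). Asns, at 12.72, 12.73 and 12.74 with estradiol, lay above its unstimulated values, with a change of 0.07 (limma adjusted p = 0.361).

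The groups overlapped for Phgdh, Shmt2, Mthfd2 and Bcat1, whose changes lay between -0.03 and 0.09. Estradiol array 2 stood apart for Shmt2, at 11.99 against 11.63 and 11.70 on the other estradiol arrays. The second Mthfd2 probe set did not match the first: it read 11.73, 11.60 and 11.62 without and 11.44, 11.30 and 11.34 with estradiol, a change of -0.29 ± 0.06 (SE, n = 3 per group, limma adjusted p = 0.0382 with every single-gene probe set tested). The probe set used for Mthfd2 read 12.67, 12.66 and 12.58 without and 12.59, 12.63 and 12.60 with estradiol, so a fall was read by 1 of the 2. The 95% intervals of the 8 uncalled genes lay between -0.31 and 0.32 for the probe sets used. Other probe sets reached lower, to -0.44 for the second of Mthfd2 and -0.63 for the second of Bcat1, whose change of -0.28 did not pass.

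**Figure D2:**
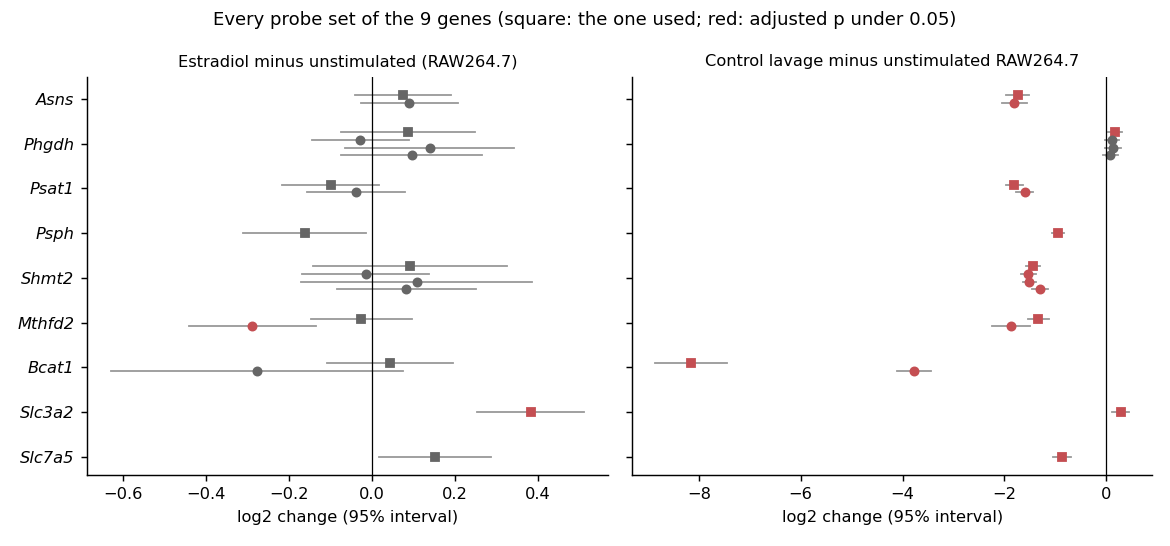
Log2 change with its 95% interval for each of the 19 probe sets of the 9 genes, with a panel for estradiol and a panel for the source comparison, where a square is the probe set used for the gene and red marks a limma adjusted p under 0.05 over all single-gene probe sets. With estradiol, Slc3a2 (0.38) and the second Mthfd2 probe set (-0.29) are red, and between the sources the Bcat1 pair (-8.15 and -3.78) lies farthest left.

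The third comparison set lavage macrophages of pregnant mice against those of control mice. None of the 9 genes was called in limma, nor was any other gene (0% of all genes). At an unadjusted p under 0.05 the count was 0 of 9 against 9.38% of all genes. The groups did not overlap for 1 of the 9, Phgdh, against 15.7% of all genes. The change was positive for 6 of the 9, against 60.5% of all genes, and the median was 0.12 beside 0.03 over all genes.

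Psat1 had the smallest p of the members, at 11.62, 11.76 and 11.53 in control and 11.70, 11.89 and 11.95 in pregnant mice. The lowest pregnant value lay inside the control range, and the change was 0.21 ± 0.10 (SE, 95% interval -0.01 to 0.44, n = 3 per group, limma adjusted p = 0.551). Mthfd2 was at 11.45, 11.31 and 11.15 in control and 11.41, 11.71 and 11.43 in pregnant mice, a change of 0.21 ± 0.11 (SE, n = 3 per group, limma adjusted p = 0.603). Asns was at 11.10, 10.93 and 10.73 in control and 11.11, 11.26 and 10.90 in pregnant mice, a change of 0.17 ± 0.13 (SE, n = 3 per group, limma adjusted p = 0.696). For Mthfd2 2 of the 3 pregnant arrays lay inside the control range, and for Asns 1 did.

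Phgdh was at 12.70, 12.76 and 12.79 in control and 12.85, 12.80 and 12.82 in pregnant mice, with a change of 0.08 (limma adjusted p = 0.706). Shmt2, Psph, Slc3a2 and Slc7a5 gave differences of 0.12, -0.03, 0.15 and -0.05 with overlapping groups, and none passed. Bcat1 was dim in both lavage groups, with a change of -0.21 (limma adjusted p = 0.844) that rests on control array 2, at 5.01, without which it was 0.16 (limma adjusted p = 0.642). The 95% intervals of the other 8 genes lay between -0.32 and 0.49 for the probe sets used. Other probe sets reached higher, to 0.71 for the second of Mthfd2 (change 0.29) and 0.58 for the second of Asns (change 0.26), neither of them called.

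**Figure D3:**
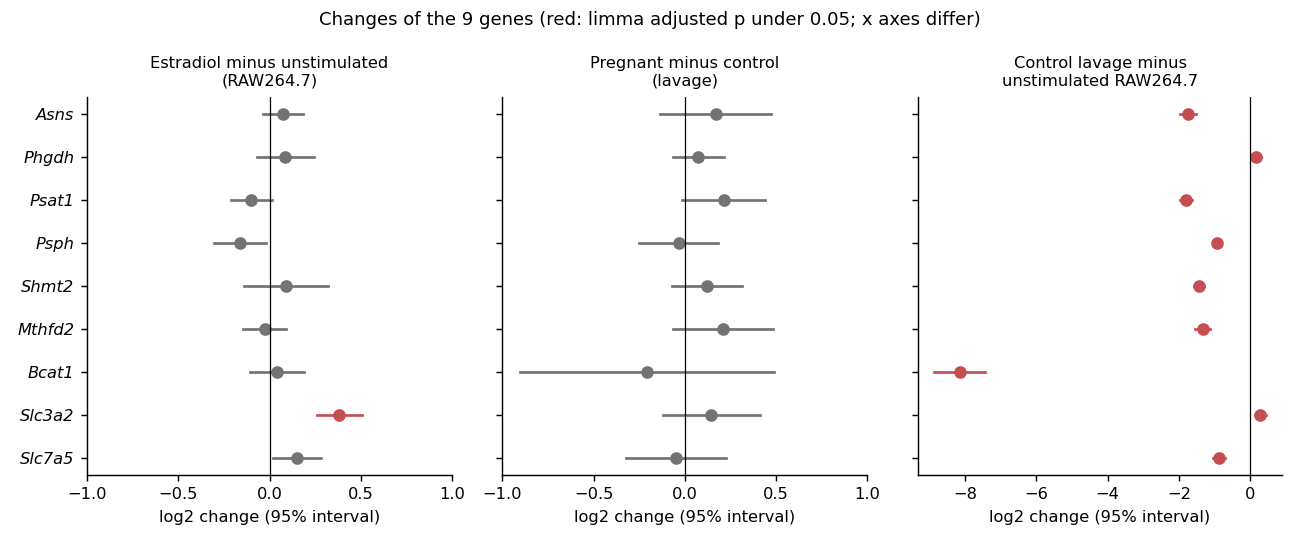
Log2 change with its 95% interval for each of the 9 genes in the estradiol, pregnancy and source comparisons, 1 panel each (x axes differ), with red marking a limma adjusted p under 0.05. Slc3a2 is the only red gene with estradiol, no gene is red with pregnancy, and all 9 are red between the sources.

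Whether pregnancy and estradiol moved the genes by different amounts was tested over all 12 arrays as the pregnancy change minus the estradiol change. None of the 9 was called, while 4.43% of all genes were, 2.21% with a higher and 2.22% with a lower difference. At an unadjusted p under 0.05, 1 of the 9 passed, against 19.3% of all genes. That gene was Psat1, whose changes of -0.10 with estradiol and 0.21 with pregnancy differed by 0.31 ± 0.11 (SE, n = 3 per group, limma adjusted p = 0.136). Slc3a2, with 0.38 and 0.15, differed by -0.24 ± 0.13 (SE, n = 3 per group, limma adjusted p = 0.339), so its call with estradiol alone did not show a different response.

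The lavage arrays varied more than the cultures for 7 of the 9 genes. The pooled SD within groups was 0.030 for Asns in RAW264.7 cells and 0.181 in lavage cells, 0.039 and 0.160 for Mthfd2, 0.031 and 0.124 for Psat1 and 0.048 and 0.152 for Slc3a2. The exceptions were Phgdh (0.080 and 0.039) and Shmt2 (0.138 and 0.095), and the median over all genes was 0.090 and 0.110. Within the lavage groups, control array 1 was the highest control array for Asns, Mthfd2, Slc3a2 and Psph, by 0.18, 0.15, 0.12 and 0.05 over the group mean. It was the lowest for Shmt2, Phgdh and Bcat1, by -0.09, -0.05 and -0.41. Pregnant array 2 was the highest pregnant array for Asns, Mthfd2, Slc3a2, Slc7a5 and Shmt2, by 0.17, 0.19, 0.17, 0.21 and 0.13, and the lowest for Psph and Phgdh, by -0.18 and -0.02. The members thus did not move alike on either array.

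Some signs of other cells and of RNA quality were also highest on these arrays, and others were not. Summed epithelial markers were 43170 on control array 1 and 46010 on pregnant array 2, and summed neutrophil markers were 22120 and 12400, each the highest of its group. Summed T and NK cell markers were highest on control array 1 (14310) and pregnant array 3 (13230). Cd2, at a mean level of 13.39 in both lavage groups, was the brightest of that list. By the mean log2 of the same list, control array 1 (7.422) and pregnant array 2 (6.914) were highest, and pregnant array 3 (6.438) was lowest. Summed erythrocyte markers were highest on control array 2 (898.5) and pregnant array 2 (2943). Of these markers Hba-a1 and Slc4a1 lay under the 40th percentile on every lavage array, so the sum rested on Alas2. Pregnant array 2 also had the highest 3′ over 5′ differences of the lavage arrays, 0.391 for actin and 3.857 for the transferrin receptor, where the others had 0.261 to 0.35 and 2.834 to 3.473. Of the 12 epithelial markers 0 were called with pregnancy, as with all genes, with sums of 28250 to 43170 in control and 32950 to 46010 in pregnant mice. The brightest, Krt19 (mean level 13.64 in control and 13.80 in pregnant mice) and Scgb1a1 (13.02 and 12.98), weigh most in these sums. The changes were positive for 10 of the 12 and negative for 2 (median 0.45), against 60.5% positive over all genes (median 0.03). Of the 9 neutrophil markers 0 were called (median -0.15), with sums of 7617 to 22120 and 7655 to 12400. Of the neutrophil markers S100a8, S100a9, Csf3r, Ltf and Mmp8 lay above the 40th percentile on all 6 lavage arrays, and the granule genes Camp and Ngp on 0. The part of these cells and of RNA quality in the members' values was not tested.

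**Figure D4:**
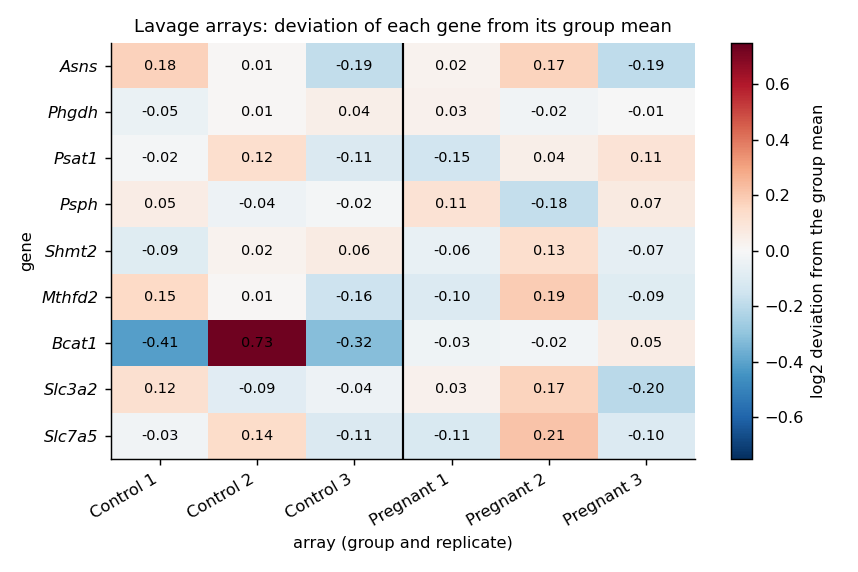
Deviation of each of the 9 genes (y axis) from its group mean on each of the 6 lavage arrays (x axis), in log2 units, by colour. Asns, Mthfd2 and Slc3a2 are above their group means on control array 1 (0.18, 0.15 and 0.12) and pregnant array 2 (0.17, 0.19 and 0.17), and Bcat1 deviates most on control array 2 (0.73), where its level was 5.01.

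Related genes were taken as lists, put together with earlier results of these data known, and each is given by its counts and its median. The shares and medians of all genes stand beside them: with estradiol 6.75% rose and 4.66% fell (median 0.02), and between the sources 27.9% were higher and 34% lower (median -0.07). Slc3a2 also pairs with other light chains. With estradiol Slc7a11, the cystine and glutamate exchanger, rose by 1.04 ± 0.06 and Slc7a8, a second importer of neutral amino acids, rose by 0.46 ± 0.07 (SE, n = 3 per group, limma adjusted p = 0.000183 and 0.00640). Slc7a6 and Slc7a7, exchangers of cationic and neutral amino acids, gave 0.17 and 0.21 and did not pass, and Slc7a10 was dim. The Slc7a11 call ended when all 12 arrays were fitted together (limma adjusted p = 0.123). Between the sources Slc7a7 (2.54) and Slc7a8 (2.13) were higher in control lavage cells and Slc7a6 (-1.87) was lower, while Slc7a11 gave 0.18 and did not pass. These light chains were named as partners of Slc3a2 after their values were seen.

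Of 19 other amino acid transporters, 4 rose and 1 fell with estradiol (median 0.07), among them Slc1a4, the neutral amino acid transporter ASCT1, by 0.82 and, dim, Slc1a2 by -0.87. Of 20 other serine and one-carbon genes, 3 rose and 4 fell (median 0.03). Cth, which makes cysteine from cystathionine, rose by 0.72, Cbs by 0.30 and the methionine synthase reductase Mtrr by 0.27, whereas Aldh1l1, which oxidises formyl-tetrahydrofolate in the cytosol, fell by 0.67, and Tyms (-0.44) and Gldc (-0.39) fell and were dim. Of 12 asparagine, glutamine and proline genes, 1 rose (Prodh, 0.45, dim) and 2 fell (the aminotransferases Gpt, -0.55, and Got1, -0.27), with a median of -0.06. Of 13 genes of branched-chain amino acid breakdown, 1 fell, Bcat2, the mitochondrial counterpart of Bcat1, by 0.27 (median -0.12).

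Of 21 ATF4 regulators and other ATF4 targets, 7 rose and 2 fell with estradiol (median 0.03). Ddit4 and Sesn2, inhibitors of mTORC1, rose by 1.10 and 1.01 and the pseudokinase Trib3 by 0.81, while Stc2 fell by 0.61 and Eif2ak2 by 0.26. Of the 9 members, several of them textbook targets of the same factor, Slc3a2 was called with estradiol and 8 were not. The part of ATF4 in these changes was not tested. The Ddit4 call ended when all 12 arrays were fitted together (limma adjusted p = 0.0602). Of 20 genes of amino acid sensing by mTORC1, 2 rose, Castor2 by 0.37 and Lamtor4 by 0.36, and 0 fell (median 0.03). Of 18 cytosolic aminoacyl-tRNA synthetases, which charge tRNAs with amino acids, 0 were called with limma and 1 passed at an unadjusted p under 0.05 (median 0.01). The synthetases with the smallest p were Farsa (-0.16) and Eprs (0.19). Of the 23 list genes called with estradiol and named for it by rule, cell cycle genes included, 12 lost their call when 1 array or another was left out: Aurkb, Bcat2, Castor2, Cbs, Eif2ak2, Gldc, Got1, Lamtor4, Mtrr, Prodh, Tpx2 and Tyms.

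Between the sources, all 18 synthetases were lower in control lavage cells (median -0.54), led by Vars (-1.16) and Cars (-0.98). Of the 20 other serine and one-carbon genes 15 were lower and 1 was higher (median -0.72), with Cth at -3.99, Aldh1l1 at -1.88 and Ggh, a lysosomal folate hydrolase, at 1.63. Of the asparagine, glutamine and proline genes 8 were lower, such as Asrgl1 (-2.23) and Got1 (-1.57), and 2 were higher, Prodh (1.67, dim) and the glutamine synthetase Glul (1.21), with a median of -0.66. Of the branched-chain breakdown genes 8 were lower, such as Hibch (-1.97) and Dbt (-1.19), and 3 were higher, among them Bckdhb (1.48) and Bckdha (0.63), with a median of -0.33.

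The transporters were mixed between the sources, with 4 higher and 8 lower (median -0.27), led by the cationic amino acid transporter Slc7a2 (6.69) and Slc7a7 on one side and by the glycine transporter Slc6a9 (-3.14) and Slc7a6 on the other. The ATF4 list gave 9 higher and 9 lower (median 0.03), among them Nupr1, at 3.99 times its RAW264.7 level, and on the log2 scale Cebpb (1.67), Stc2 (-2.16) and Atf3 (-1.50). The mTORC1 list gave 9 higher and 5 lower (median 0.06), among them Sesn3 (3.78), Myc (2.61), Sesn1 (-2.24) and Castor2 (-1.69). All 19 proliferation genes were lower in lavage cells (median -1.42), such as Bub1 (-3.25) and Aurka (-3.06), with summed intensities of 41790 to 49310 on control lavage and 106900 to 108200 on unstimulated arrays. Like Bcat1, 5 of these genes lay under the 40th percentile on all 3 arrays of 1 source. Prodh lay above it on only 2 of the 3 control lavage arrays and was dim, and the changes of the others set a measured level against a dim one. The brighter mean of the 5 genes stood above that percentile of the dim arrays by 12.6-fold for Slc7a2, 2.20-fold for Sesn3 and 1.14-fold for Prodh in control lavage cells, and by 2.40-fold for Stc2 and 1.78-fold for Cth in unstimulated cells.

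The lower levels of 7 members and those of the proliferation genes thus stood side by side in this comparison, and the part of cell division in the members' levels was not tested.

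With pregnancy 0 genes of these lists were called with limma. The related gene lists, cell type markers aside, had medians of 0.01 to 0.09, apart from the proliferation list (0.28), beside 0.03 over all genes. All 19 proliferation genes had positive changes, against 60.5% of all genes, with sums of 48700 to 58880 on pregnant arrays, and the smallest p in that list were those of Bub1 (0.58) and Tpx2 (0.42). Elsewhere the smallest p were those of Ahcy (0.19) and, dim, Folr1 (0.26) among the serine and one-carbon genes, Pycrl (0.22) and Asl (0.12) among the asparagine, glutamine and proline genes, and Hibch (0.38) and Bcat2 (0.26) in branched-chain breakdown. Among transporters they were Slc38a1 (-0.22) and, dim, Slc1a3 (0.57), among synthetases Aars (0.17) and Gars (0.09), in the ATF4 list Atf3 (0.54) and Nupr1 (-0.19), and in the mTORC1 list Tsc1 (-0.21) and Sesn3 (0.26). With estradiol 2 of the 19 proliferation genes fell, Aurkb by 0.30 and Tpx2 by 0.28 (median -0.08).

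**Figure D5:**
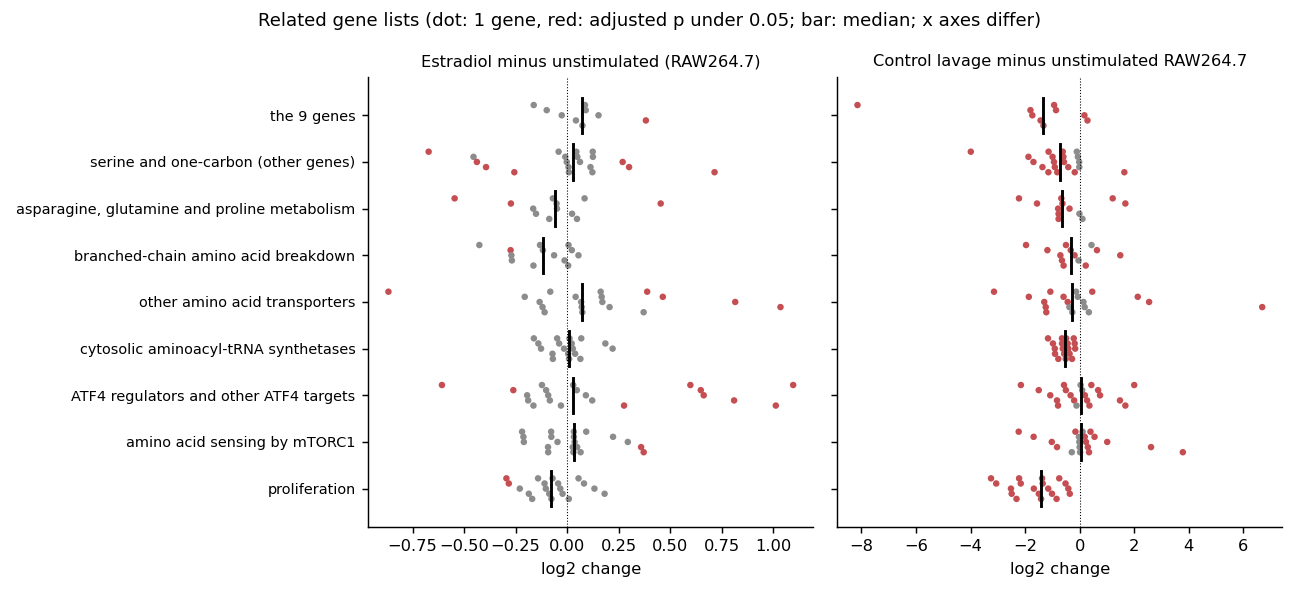
Log2 change of each measured gene (dots, red for a limma adjusted p under 0.05) in the 9 genes and the related gene lists, with a bar at each list's median, in a panel for estradiol and a panel for the source comparison (x axes differ). The tRNA synthetases (median -0.54) and proliferation genes (median -1.42) all lie left of 0 between the sources, and no synthetase is red with estradiol.

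The genes nearest to each member in pattern were those with the smallest root mean square difference of log2 values over the 12 arrays, each gene centred on its own mean. They were Eya3 (0.0846) and Syt11 (0.0978) for Asns, Tmem30a (0.0446) and Itfg1 (0.0452) for Phgdh, Ccdc106 (0.0712) and Cep55 (0.0779) for Psat1, and Ankrd49 (0.0608) and Zfp830 (0.0644) for Psph. They were Zfp346 (0.0997) and Prrc1 (0.104) for Shmt2, Snap47 (0.0757) and Mindy1 (0.0854) for Mthfd2, and Cadps (0.202) and Cldn11 (0.234) for Bcat1. For Slc3a2 they were Sqstm1 (0.0608) and Gm11517 (0.0734), and for Slc7a5 Csad (0.0877) and Ddx19b (0.089). Among the members themselves the closest pair by this measure was Asns and Psat1 (0.144) and the farthest Bcat1 and Slc3a2 (4.23). The 12 points share the 4 groups, so a shared step between the sources weighs most in this measure.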

How the data were processed

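The authors deposited 1 linear intensity per probe set and array, made with RMA per the submitters' processing notes (no version stated). The design had assumed log2 values and named log2(value + 1) for linear ones, which was used. Of 22690 probe sets, 20380 had 1 gene symbol in the supplied platform annotation, 691 several and 1555 none, and 64 controls were left out. The brightest probe set stood for each of 12393 genes. Groups came from the group label. limma 3.58.1 (R 4.3.3, lmFit and eBayes) was fitted to the 6 arrays compared, or to all 12 for the difference of changes, two-sided, and was tested on simulated data. Alternatives covered scaling, pseudocount (none or 16), dim filter, probe set choice, prior, array weights, all arrays in 1 fit, a 0.01 threshold and leaving out each array. Named were all members and, per list and comparison, the called genes with the 3 largest rises and falls (2 between sources) or, with none called, the 2 smallest p. Of 260 entries in 15 lists, 208 were measured. The members and lists were chosen with earlier results of these data known. Figures were drawn with matplotlib 3.10.9 under Python 3.11.15.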

Additional observations from a re-analysis of the deposited data

Results flagged for a closer look

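In 13 genes of the related lists, and in none of the 9 members, the pregnancy change minus the estradiol change passed in limma at a Benjamini-Hochberg adjusted p under 0.05 over all genes (n = 3 per group). Over all genes 549 of 12393 passed (4.43%). Higher and lower differences numbered 1 and 2 of 19 transporters, 1 and 3 of 21 ATF4 list genes and 2 and 0 of 19 proliferation genes. They numbered 2 and 0 of 13 branched-chain, 1 and 0 of 20 serine and one-carbon and 1 and 0 of 12 asparagine, glutamine and proline genes. Of the 18 synthetases 0 passed. The values given are log2 differences, with both changes beside them. Slc1a2 and Folr1 lay above the 40th percentile on 0 of the 12 arrays, so their differences are between dim values. Stc2 and Slc1a4 lay above it on all 6 RAW264.7 arrays, but on only 6 and 7 of the 12 arrays. Both were therefore dim in the pregnancy comparison, and their differences set a measured estradiol change against a change of dim values.

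Among transporters the changes differed for Slc1a2 by 1.16 (-0.87 with estradiol and 0.29 with pregnancy), Slc1a4 by -1.06 (0.82 with estradiol and -0.25 with pregnancy) and Slc7a6 by -0.36 (0.17 with estradiol and -0.19 with pregnancy). Among enzymes and folate genes they differed for Gpt by 0.66 (-0.55 with estradiol and 0.12 with pregnancy), Bcat2 by 0.53 (-0.27 with estradiol and 0.26 with pregnancy), Hibch by 0.45 (-0.06 with estradiol and 0.38 with pregnancy) and Folr1 by 0.72 (-0.45 with estradiol and 0.26 with pregnancy). In the ATF4 list they differed for Sesn2 by -1.03 (1.01 with estradiol and -0.02 with pregnancy), Nupr1 by -0.85 (0.66 with estradiol and -0.19 with pregnancy), Stc2 by 0.77 (-0.61 with estradiol and 0.16 with pregnancy) and Ddit3 by -0.49 (0.60 with estradiol and 0.11 with pregnancy). In the mTORC1 list 0 genes were called for this difference. Among proliferation genes they differed for Aurkb by 0.78 (-0.30 with estradiol and 0.49 with pregnancy) and Tpx2 by 0.70 (-0.28 with estradiol and 0.42 with pregnancy).

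The adjusted p-values in limma ran from 0.000509 for Nupr1 to 0.0486 for Aurkb, and 6 of the 13 calls (Aurkb, Ddit3, Folr1, Hibch, Slc7a6 and Tpx2) ended when 1 array or another was left out. Single far arrays were not tested for, since groups of 3 are too small for it.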

How the results depend on the processing

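The calls of the 9 members kept their direction under every alternative run. Slc3a2 stayed called with estradiol in all 17 settings, and the Phgdh call between the sources ended in 6 of 17. With estradiol 2 members were called under an intensity-dependent robust prior, Psat1 being added (limma adjusted p = 0.0413), and 3 with array weights, Psph (0.0102) and Slc7a5 (0.00556) being added. Over all genes the estradiol calls numbered 4010 with array weights, 558 at an adjusted p under 0.01 and 637 to 1730 without single arrays, lowest without unstimulated array 2, against 1414. Between the sources 8 to 9 members and 6793 to 7631 genes were called without single arrays, and 12704 probe sets when each was tested. With pregnancy 1 gene was called with the dim filter, 18 with all 12 arrays in 1 fit and 0 to 2 without single arrays, none of them a member, and Bcat1 gave no value with that filter. For the difference of changes 1394 genes were called with array weights, 169 at an adjusted p under 0.01 and 263 to 573 without single arrays, against 549. Quantile or median scaling changed no member's call. No paired analysis was possible because the replicate numbers only follow the order of deposit. Precision is limited by 3 arrays per group and, for Bcat1 in lavage cells, by a signal near the bottom of the array's range. The causes of the other moves were not tested.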
